A study of Mus musculus with 6 samples.

Results

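The 61 core histone cluster genes are named for the H2A, H2B, H3 and H4 proteins around which DNA is wound in the nucleosome. They were taken from the deposited transcript table by their symbols, as Ensembl entries named for the 4 histone gene clusters, Hist1 to Hist4, and for a core histone type, with symbols marked as pseudogenes left out. They are 61 of the 22158 genes with an Ensembl transcript in the table, and by symbol 18 are H2A genes, 18 H2B, 12 H3 and 13 H4. One of the H2A genes, Hist1h2al, is a transcribed pseudogene in RefSeq and lies outside the cluster. The set was chosen with the contrast between PM2.5 and saline already known. Its differences in that contrast are therefore given as a description, and no test is read from them.

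Whole lungs were taken from mice of the inbred strain BALB/c, labelled as 9 weeks of age. PM2.5 is fine airborne particulate matter. One group was given 50 µl of saline into the trachea each week for 8 weeks, and the other was given PM2.5 at 5 mg/kg body weight in 50 µl of saline on the same schedule, with 3 libraries in each group, numbered 2, 3 and 4. No genotype or other agent is named for either group. Nothing states that the 3 libraries within a group were made from different animals, so the spread between them may be technical.

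Genes of this kind are transcribed mainly while DNA is being copied, in S phase, when new chromatin has to be packed. They usually lack introns, and their mRNAs usually end in a stem-loop instead of a poly(A) tail. The stem-loop is bound by SLBP, which governs the processing and translation of the mRNA. Each protein is made from many near-identical gene copies, in contrast to the replacement variants, such as H3.3 and H2A.Z, which come from separate genes with polyadenylated mRNAs that are used throughout the cell cycle. Most adult lung cells are not dividing.

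The deposited values were read as FPKM, that is, fragments scaled by transcript length and sequencing depth. From the spacing of low values, each library was estimated to rest on 18.8 to 21.95 M fragments, at which 3 fragments of a 1 kb transcript are worth 0.137 to 0.160 FPKM. This estimate covers counting error only. Lung markers were high, with Sftpb, a surfactant protein, at 1524.5 to 1899.9 FPKM over the 6 libraries. Nkx2-1, the lung lineage transcription factor, lay at 0.00910 to 0.0406 FPKM and was thus almost absent from the table's values. Sftpc, the marker of alveolar type 2 cells, was 8108 and 6618 FPKM in saline replicate 2 and PM2.5 replicate 2, and 588 to 1952 in the other 4 libraries, so these libraries stood apart in that gene.

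The promoters of these genes carry short shared elements, and they are shown for 1 gene of each type, the one with the highest mean level that the promoter table held. Sequences are the 250 bases before the RefSeq start in build GRCm38.p6, written 5′ to 3′ along the gene, with capitals marking TATAAA (the TATA box), CCAAT (the CCAAT box) and ATTTGCAT (the octamer) on either strand, so that ATTGG is a CCAAT box on the opposite strand.
Hist2h2aa2 (H2A, chr3:96240375-96240624, minus strand): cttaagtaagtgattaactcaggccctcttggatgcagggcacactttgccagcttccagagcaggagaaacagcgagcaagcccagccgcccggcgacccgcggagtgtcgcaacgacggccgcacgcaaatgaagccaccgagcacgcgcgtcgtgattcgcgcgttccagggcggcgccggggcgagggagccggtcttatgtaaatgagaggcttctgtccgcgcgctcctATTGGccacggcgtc
Hist2h2bb (H2B, chr3:96269450-96269699, plus strand): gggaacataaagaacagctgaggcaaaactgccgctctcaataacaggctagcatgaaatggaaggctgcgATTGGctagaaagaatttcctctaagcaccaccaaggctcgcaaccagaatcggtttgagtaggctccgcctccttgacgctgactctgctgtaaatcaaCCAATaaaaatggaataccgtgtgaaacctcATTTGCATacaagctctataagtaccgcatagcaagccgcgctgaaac
Hist1h3e (H3, chr13:23562386-23562635, minus strand): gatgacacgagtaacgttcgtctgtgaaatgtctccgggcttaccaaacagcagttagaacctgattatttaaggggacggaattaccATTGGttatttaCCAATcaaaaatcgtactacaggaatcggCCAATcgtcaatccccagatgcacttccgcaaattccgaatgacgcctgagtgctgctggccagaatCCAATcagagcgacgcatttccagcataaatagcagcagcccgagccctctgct
Hist1h4d (H4, chr13:23581318-23581567, plus strand): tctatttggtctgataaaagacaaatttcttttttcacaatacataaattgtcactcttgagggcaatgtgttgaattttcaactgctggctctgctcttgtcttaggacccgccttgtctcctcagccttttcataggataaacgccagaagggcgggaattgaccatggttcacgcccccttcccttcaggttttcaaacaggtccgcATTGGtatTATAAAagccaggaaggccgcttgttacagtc
The H4 promoter held a TATA box whose first base lay 32 bases before the start, with a CCAAT box on the opposite strand just upstream of it. The H2B promoter held an octamer, first base 48 bases before the start, and 2 CCAAT boxes. The H3 promoter held 4 CCAAT boxes, 3 of them on the gene's own strand, and the H2A promoter held 1, on the opposite strand.

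All 61 genes matched a RefSeq gene, and 55 had a promoter in the table. Those for Hist1h2al, Hist1h2bc, Hist2h2be, Hist1h3f, Hist1h3a and Hist2h4 had none there. A CCAAT box, searched on both strands, was present in all 17 H2A promoters and all 16 H2B promoters, in 8 of 10 H3 promoters and in 3 of 12 H4 promoters. That made 44 of 55 (80.0%), compared with 34.5% of all 27025 mouse promoters. The octamer was found in 6 of 17 H2A and 6 of 16 H2B promoters and in none of the 10 H3 or 12 H4 promoters, compared with 1.61% of all promoters. TATAAA occurred in 24 of 55 (43.6%), spread over the 4 types, compared with 12.97% of all promoters. No motif contains another, although matches may overlap at their ends. Neighbouring H2A and H2B genes share promoter windows, so their counts are not separate observations. A match is a description of the sequence and no evidence of binding.

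Core histone RNA was lower in the lungs given PM2.5 than in those given saline, for all 4 types. The summed level of the 61 genes was 1026.5, 837 and 542 FPKM in saline replicates 2, 3 and 4 and 271, 258 and 172 FPKM in PM2.5 replicates 2, 3 and 4. The means were 802 ± 245 and 234 ± 53.6 FPKM (SD, n = 3), a ratio of 3.43 of saline to PM2.5. The lowest saline library was 2.00 times the highest PM2.5 library, and the highest saline library was 1.90 times the lowest. In whole lung, fewer cells that make these RNAs and less of them per cell cannot be told apart. How RNA without a poly(A) tail was handled in the library step is not given in the sources used here. Uneven capture of such RNA therefore cannot be told apart from either.

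**Figure D1:**
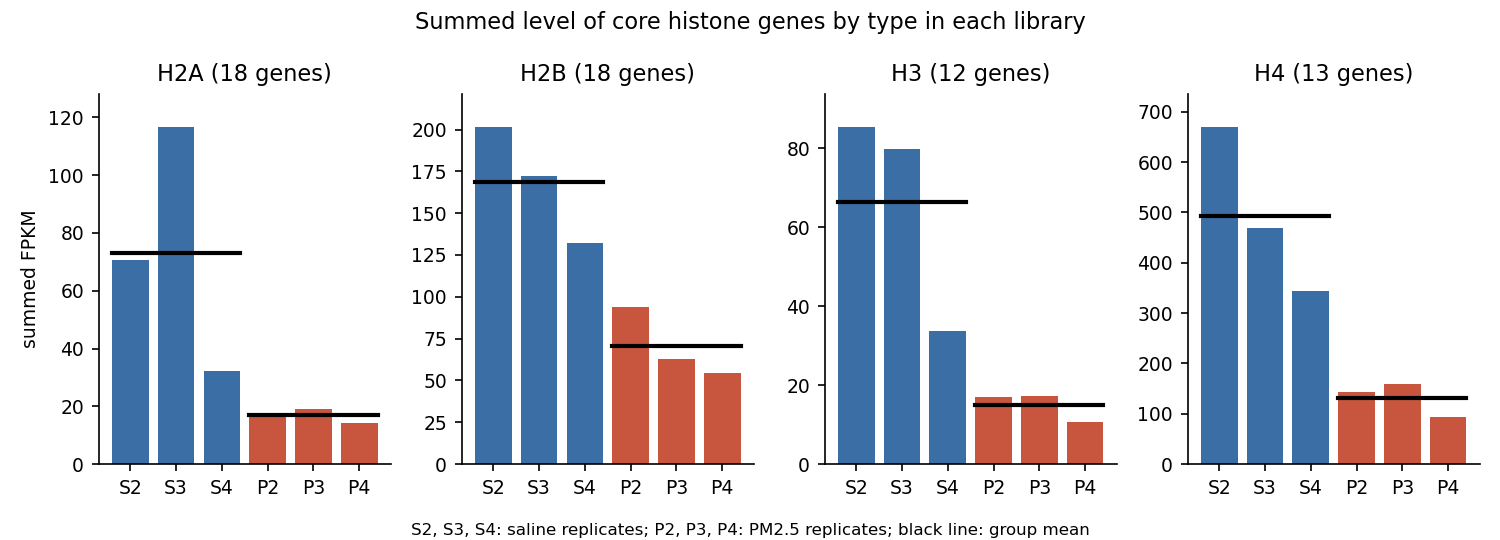
Summed FPKM of the H2A, H2B, H3 and H4 genes (4 panels, each with its own vertical axis from 0) in the saline libraries S2, S3 and S4 (blue) and the PM2.5 libraries P2, P3 and P4 (red), with a black line at each group mean. All PM2.5 sums lie below all saline sums in each type, from 143, 159 and 92.8 FPKM for H4 down to 16.9, 17.3 and 10.7 FPKM for H3, and the saline bars vary most in H2A.

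Of the 61 genes, 53 entered the fit across genes, having reached 0.5 FPKM or more on average. That filter let 8 of the 53 through on their saline values, since their PM2.5 mean was under 0.5 FPKM, and none the other way round. Nearest to it were Hist2h2ab, inside at a mean of 0.518 FPKM, and Hist1h2ac, outside at 0.495 FPKM. In the limma fit on log2(FPKM + 0.5), 0 of the 53 were called at an adjusted p under 0.05, the smallest Benjamini-Hochberg adjusted p being 0.0944, where 0.0942% of all 14865 genes tested were called. With saline replicate 4 left out, 6 were called, at limma adjusted p values from 0.0276 to 0.0444: Hist2h2aa2, Hist1h2bg, Hist1h3f, Hist1h3g, Hist2h3b and Hist1h4j. At an unadjusted limma p under 0.05, 43 of the 53 were lower with PM2.5 and 0 higher, where 7.82% of all genes were lower by that rule. Since the set was chosen on this contrast, nothing is read from these counts.

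All 3 PM2.5 libraries lay below all 3 saline libraries for 43 of the 53, where 11.8% of all tested genes did so. The same held for 50 of the full 61, but the 11.8% covers only genes that passed the filter. The groups overlapped for the other 10 of the 53, and in no gene did PM2.5 lie above saline in every library. A log2 fold change of -1 or less was found for 44 of the 53, against 2.52% of all genes. The median log2 fold change was -1.59 over the 53 and -0.03 over all tested genes, with a range from -2.75 for Hist1h4n to 0.28 for Hist2h3c1, the only positive value. Fold changes are differences of log2(FPKM + 0.5), PM2.5 minus saline, and are too small for low genes.

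**Figure D2:**
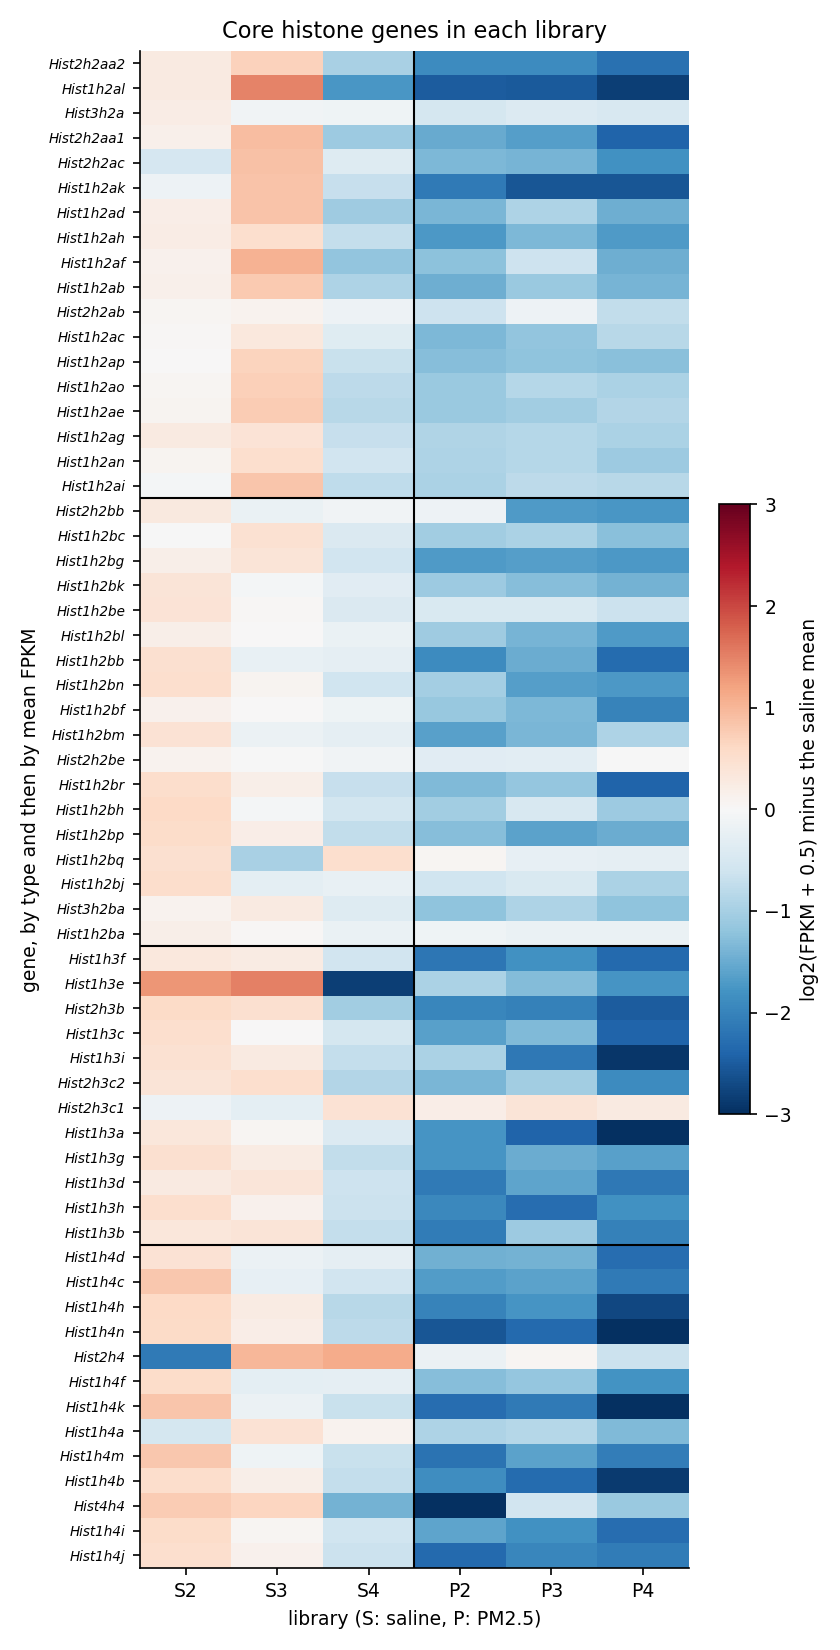
Each of the 61 genes (rows, grouped as H2A, H2B, H3 and H4 from top to bottom and ordered by mean FPKM within a type) in the 6 libraries (columns), coloured by log2(FPKM + 0.5) minus the gene's saline mean, from -3 (blue) to 3 (red). The PM2.5 columns are blue in nearly every row. The S4 column is paler or blue in most rows, and Hist2h3c1, Hist1h2bq and Hist2h4 depart from the common pattern.

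H4 was the most abundant type, at 61.6% of the summed core histone FPKM in saline and 56.2% in PM2.5, by the group means. Single libraries of the groups overlapped in this share. H4 pairs with H3 in the centre of the nucleosome, and by the table's UniProt entries all 13 genes encode 1 and the same protein, so fragments may have been divided among the copies and the sum is firmer than any single gene. The H4 sum was 669, 469 and 343 FPKM in saline and 143, 159 and 92.8 FPKM in PM2.5, or 494 ± 164.5 against 131 ± 34.3 FPKM (SD, n = 3), a log2 difference of -1.89. The groups did not overlap, and replicate 4 was the lowest library in both.

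Hist1h4d, on chromosome 13, was the highest core histone gene of all. It stood at 211, 139.7 and 130.5 FPKM in saline and 57.6, 58.1 and 31.8 FPKM in PM2.5, a log2 fold change of -1.71 ± 0.30 (SE). Its groups were far apart, with the lowest saline library more than double the highest PM2.5 one. Hist1h4c followed at 137, 65.8 and 52.2 FPKM against 24.2, 25.3 and 17.5 FPKM, with saline replicate 2 well above the other saline libraries. Hist1h4h was 102, 79.5 and 37.8 FPKM in saline and 16.3, 19.3 and 9.74 FPKM in PM2.5. Hist1h4n had the most negative fold change of all members, -2.75 ± 0.42, from 70.9, 54.3 and 27.4 FPKM to 7.50, 9.04 and 4.23 FPKM. Every PM2.5 value of these genes lay below every saline value.

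The other Hist1 copies of H4 had lower levels and the same order of groups. Log2 fold changes were -2.48 for Hist1h4k, -2.35 for Hist1h4b, -2.13 for Hist1h4j, -1.96 for Hist1h4m, -1.89 for Hist1h4i, -1.41 for Hist1h4f and -1.04 for Hist1h4a. Hist1h4a was 9.57, 18.96 and 15.1 FPKM in saline and 7.19, 7.51 and 5.27 FPKM in PM2.5, so its highest saline library was replicate 3 and not replicate 2.

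The H4 genes outside Hist1 behaved unevenly. Hist2h4, on chromosome 3, was 2.48, 25.6 and 27.8 FPKM in saline and 10.9, 12.98 and 7.77 FPKM in PM2.5. Here saline replicate 2 was the lowest of all 6 libraries, the groups overlapped, and the log2 fold change of -0.26 ± 0.88 became positive, 0.24 or 0.30, without saline replicate 3 or 4. With saline replicate 2 left out it was -1.32. Hist4h4, on chromosome 6, was 15.9, 14.7 and 3.14 FPKM in saline and 0.138, 6.05 and 4.01 FPKM in PM2.5. Saline replicate 4 lay between the PM2.5 libraries, and its log2 fold change of -1.86 carried an SE of 1.03. Leaving out saline replicate 4 moved this value to -2.57, and leaving out PM2.5 replicate 2 moved it to -0.83.

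H3 carries the tail whose modifications mark active and silent chromatin. Its 12 genes summed to 85.3, 79.7 and 33.8 FPKM in saline and 16.9, 17.3 and 10.7 FPKM in PM2.5, or 66.3 ± 28.3 against 15.0 ± 3.70 FPKM (SD, n = 3). The log2 difference of -2.03 was the most negative of the 4 types, although without saline replicate 3 that of H4, -1.90, was below that of H3, -1.84, and without saline replicate 2 that of H2A, -1.84, was below that of H3, -1.79. Saline replicate 4 was again the lowest saline library. By UniProt entry the genes fall into H3.1 (Hist1h3a, Hist1h3g, Hist1h3h and Hist1h3i) and H3.2 (the other 8), 2 proteins that differ very little. H3.1 genes summed to 18.8 FPKM in saline and 3.24 FPKM in PM2.5, a log2 difference of -2.37. H3.2 genes summed to 47.5 and 11.7 FPKM, a log2 difference of -1.88. The difference between the 2 proteins was not tested.

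Hist1h3f, an H3.2 gene and the highest of the type, was 12.1, 11.5 and 6.31 FPKM in saline and 1.74, 2.35 and 1.503 FPKM in PM2.5, a log2 fold change of -2.11 ± 0.28 (SE). Hist2h3b, also H3.2, was 10.5, 9.85 and 3.12 FPKM against 1.43, 1.32 and 0.816 FPKM. Hist1h3a, an H3.1 gene, was 6.27, 5.08 and 3.52 FPKM against 1.06, 0.509 and 0.0995 FPKM and had the most negative value among H3 genes, -2.45. In these genes the groups were separate, with PM2.5 replicate 4 the lowest library of each. The remaining separated genes, Hist1h3b, Hist1h3c, Hist1h3d, Hist1h3g, Hist1h3h, Hist1h3i and Hist2h3c2, had log2 fold changes between -2.01 and -1.43.

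Hist1h3e, whose promoter is printed above, was 13.2, 15.0 and 0.271 FPKM in saline and 2.34, 1.72 and 1.11 FPKM in PM2.5. Saline replicate 4 was the lowest of all 6 libraries, which left the groups overlapping and the log2 fold change at -1.34 ± 1.17. Leaving that library out moved it to -2.75, and leaving out saline replicate 3 to -0.59. Hist2h3c1 was 2.12, 1.90 and 3.48 FPKM in saline and 2.83, 3.30 and 3.01 FPKM in PM2.5, a log2 fold change of 0.28 ± 0.21. The transcript table places both Hist2h3c1 and its neighbour Hist2h2aa1 over another gene on the same strand, Gm20634, at 1.67 FPKM in saline and 0.0958 FPKM in PM2.5, so fragments there could have been assigned to either.

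H2B forms the outer part of the nucleosome together with H2A. Its 18 genes summed to 201, 172 and 132 FPKM in saline and 93.9, 62.8 and 54.3 FPKM in PM2.5, or 169 ± 34.6 against 70.3 ± 20.9 FPKM (SD, n = 3). The log2 difference of -1.27 was the least negative of the 4 types. By the group means, H2B made up 21.0% of the core histone sum in saline and 30.1% in PM2.5, with single libraries of the groups overlapping in share. In summed FPKM the groups were separate, by 132 against 93.9 FPKM at their nearest.

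Hist2h2bb had the highest mean of the type and did not separate the groups. It was 63.5, 44.9 and 47.9 FPKM in saline and 46.4, 15.5 and 15.0 FPKM in PM2.5, so PM2.5 replicate 2 lay inside the saline range and the other PM2.5 libraries well below it. Hist1h2bc was 26.4, 36.4 and 19.5 FPKM against 12.7, 13.5 and 10.8 FPKM, a log2 fold change of -1.08 ± 0.23 (SE). Hist1h2bg was 23.7, 27.2 and 13.9 FPKM against 6.08, 6.25 and 5.96 FPKM, a log2 fold change of -1.69 ± 0.25. Both were separate between groups, and the PM2.5 libraries of Hist1h2bg lay very close together. These genes and Hist1h2be share a UniProt entry, and their sum was 57.4 FPKM in saline and 23.9 FPKM in PM2.5.

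Hist1h2bb had the most negative fold change of the type, -1.90 ± 0.28, at 12.6, 7.63 and 7.38 FPKM in saline and 2.04, 2.83 and 1.41 FPKM in PM2.5. Hist1h2bk, Hist1h2bl, Hist1h2bn, Hist1h2bf, Hist1h2bm, Hist1h2br, Hist1h2bp and Hist3h2ba also had every PM2.5 library below every saline library, with log2 fold changes from -1.63 to -1.119. So did Hist1h2bj at -0.67 and Hist1h2be at -0.52, both with smaller differences. The 6 genes Hist1h2bf, Hist1h2bj, Hist1h2bl, Hist1h2bn, Hist1h2bq and Hist1h2br share another entry and summed to 24.9 FPKM in saline and 8.31 FPKM in PM2.5.

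Hist1h2bh was 4.51, 2.69 and 1.75 FPKM in saline and 1.11, 1.87 and 1.06 FPKM in PM2.5, with saline replicate 4 just under PM2.5 replicate 3. Hist1h2bq was 1.66, 0.290 and 1.69 FPKM against 1.1195, 0.809 and 0.791 FPKM. Saline replicate 3 was its lowest library, and the log2 fold change of -0.15 ± 0.42 turned positive, to 0.09 or 0.10, when saline replicate 2 or 4 was left out. Hist2h2be was 3.17, 2.85 and 2.67 FPKM against 2.19, 2.23 and 2.87 FPKM, a log2 fold change of -0.22 ± 0.14 with PM2.5 replicate 4 inside the saline range.

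H2A carries the acidic patch to which many chromatin proteins bind. Its 18 genes summed to 70.7, 117 and 32.2 FPKM in saline and 17.5, 19.1 and 14.3 FPKM in PM2.5, or 73.2 ± 42.3 against 17.0 ± 2.45 FPKM (SD, n = 3), a log2 difference of -1.90. The highest saline library was 3.62 times the lowest, the PM2.5 libraries were close together, and the groups did not overlap.

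Hist2h2aa2, the highest H2A gene, was 20.2, 27.1 and 8.28 FPKM in saline and 4.09, 4.12 and 3.12 FPKM in PM2.5, a log2 fold change of -2.01 ± 0.42 (SE). Hist2h2aa1, which shares its UniProt entry, was 9.90, 17.1 and 3.90 FPKM against 2.76, 2.48 and 1.27 FPKM. Hist3h2a, on chromosome 11, had the smallest change of the type at 11.4, 9.07 and 8.89 FPKM against 6.59, 7.24 and 6.86 FPKM, a log2 fold change of -0.47 ± 0.12. The groups were nevertheless separate for all of these. Hist2h2ac was 3.25, 9.20 and 3.57 FPKM against 1.57, 1.53 and 0.996 FPKM, and Hist2h2ab had a log2 fold change of -0.51.

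Hist1h2al was 13.1, 31.1 and 2.87 FPKM in saline and 1.49, 1.47 and 1.09 FPKM in PM2.5, the largest saline SD of the type, 14.3 FPKM. It lies at chr13:51202688-51203065, and RefSeq calls it H2af-ps2. Without it, the H2A sum was 57.5 ± 28.1 FPKM in saline and 15.6 ± 2.24 FPKM in PM2.5 (SD, n = 3), a log2 difference of -1.73. Hist1h2ak was 2.17, 4.91 and 1.33 FPKM in saline and 0.183 FPKM in PM2.5 replicate 2, and it was listed at 0 in the other PM2.5 libraries. Hist1h2ah and Hist1h2ab were also separate between groups, with log2 fold changes of -1.60 and -1.32. Hist1h2ad at -1.25 and Hist1h2af at -1.11 were not, because saline replicate 4 lay among the PM2.5 libraries.

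The 8 genes below the filter were 7 H2A genes of Hist1, namely Hist1h2ac, Hist1h2ae, Hist1h2ag, Hist1h2ai, Hist1h2an, Hist1h2ao and Hist1h2ap, and Hist1h2ba, the H2B gene best known from testis. The H2A genes had saline means of 0.563 to 0.867 FPKM and PM2.5 means of 0.0305 to 0.124 FPKM, and every PM2.5 library was below every saline library in each. A share over all genes below the filter is not given here, so nothing is read from that. With Hist1h2ab and Hist1h2ad these 7 H2A genes share 1 UniProt entry, and the 9 genes together reached 7.38 FPKM in saline and 0.676 FPKM in PM2.5. Hist1h2ba was 0.152 and 0.0886 FPKM in saline replicates 2 and 3, 0.0312 FPKM in PM2.5 replicate 2, and listed at 0 in the other 3 libraries.

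**Figure D3:**
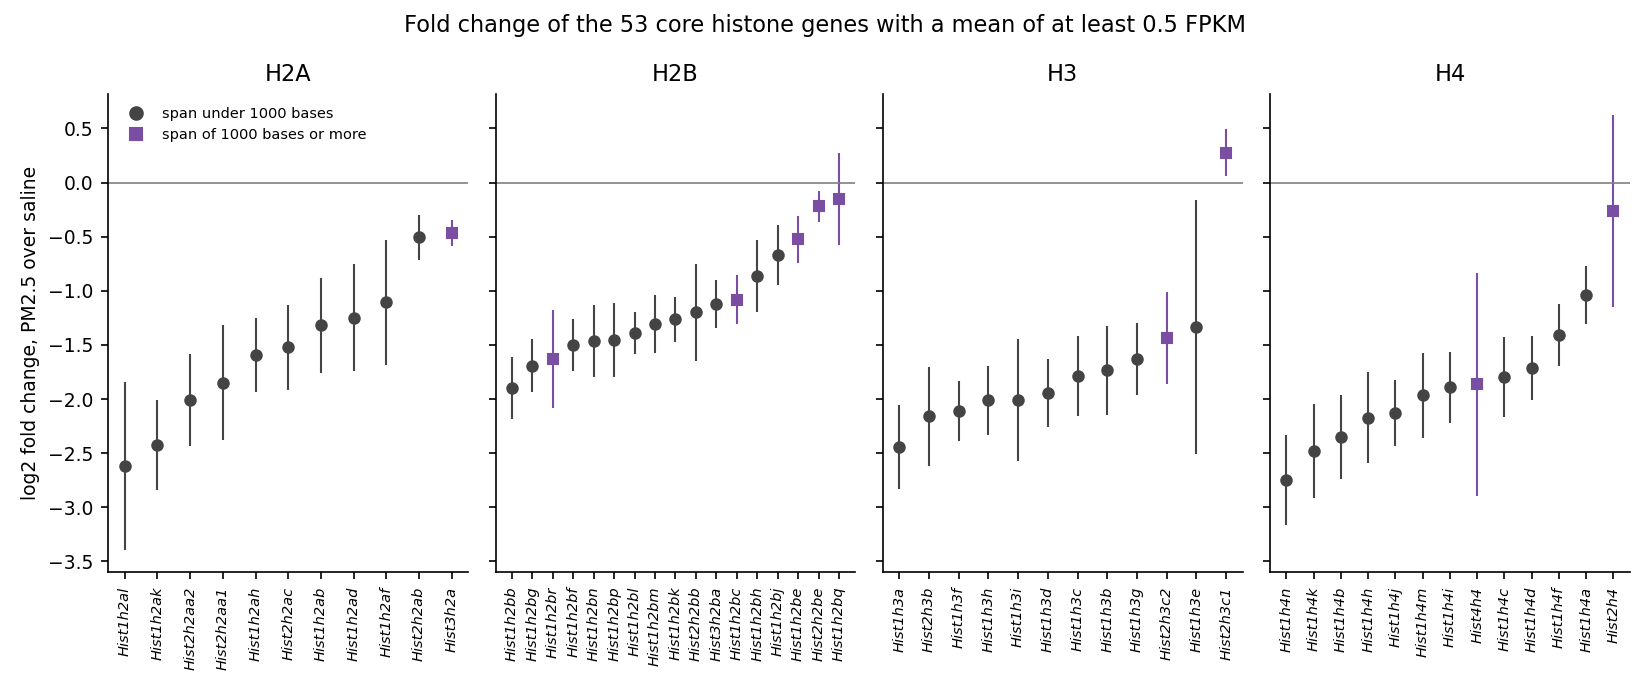
Log2 fold change, PM2.5 over saline, with its standard error, of the 53 tested genes in 4 panels by type, ordered within each, with round points for entries spanning under 1000 bases and square purple points for longer ones. The points run from -2.75 for Hist1h4n to 0.28 for Hist2h3c1, and the 5 highest values are all squares.

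The members that differed least were mostly those whose main transcript entry is long. The length of the genomic span of each gene's highest entry was compared with its fold change, the limit of 1000 bases being chosen after the values were seen. For 51 members that span was under 1000 bases, from 312 to 848, about the size of an intronless histone mRNA. The 43 of them that were tested had a median log2 fold change of -1.71. Groups were separate in 38 of the 43, where 11.8% of all tested genes were separate and lower. The other 10, spanning 1020 to 37353 bases, had a median of -0.49 and separate groups in 5, beside that same 11.8%. They are Hist3h2a, Hist1h2bc, Hist1h2be, Hist2h2be, Hist1h2br, Hist1h2bq, Hist2h3c1, Hist2h3c2, Hist2h4 and Hist4h4. Short members summed to 712 FPKM in saline and 186 FPKM in PM2.5, and long members to 89.96 and 47.1 FPKM. These classes rest on the deposited entries, and RefSeq places some genes otherwise. There Hist2h3c1, Hist2h3c2, Hist2h4, Hist4h4 and Hist3h2a span 664, 649, 384, 439 and 508 bases, under the limit. Hist1h2bp and Hist1h2al, short by their entries, span 14079 and 2983 bases in RefSeq. Whether entry length bears on the difference was not tested.

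Entries of 1 gene could also differ. Hist1h2be has 3, all over 1000 bases, and the one spanning 2099 bases was 2.35, 2.15 and 2.28 FPKM in saline and 2.58, 2.64 and 2.34 FPKM in PM2.5, about level. Its entry spanning 37353 bases was 5.02, 4.08 and 3.53 FPKM against 3.17, 1.116 and 0.667 FPKM, lower with PM2.5. The third, spanning 37382 bases, was 3.48, 2.00 and 0.0587 FPKM in saline, listed at 0 in PM2.5 replicate 2, and 1.95 and 1.96 FPKM in the other PM2.5 libraries. Within this gene the level entry was thus the shortest. How fragments were divided between such overlapping entries is not given in the sources used here.

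By cluster, the 48 Hist1 genes summed to 657 ± 226 FPKM in saline and 171 ± 40.1 FPKM in PM2.5 (SD, n = 3), a log2 difference of -1.90. The 10 Hist2 genes on chromosome 3 summed to 123 ± 21.0 and 51.7 ± 19.6 FPKM, a log2 difference of -1.29. The 2 Hist3 genes on chromosome 11 summed to 10.8 ± 1.52 and 7.10 ± 0.401 FPKM, a log2 difference of -0.57, and most of that sum was Hist3h2a. In each of these clusters all PM2.5 sums were below all saline sums.

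Between the first and the last of its 47 core histone genes, the Hist1 cluster covers chr13:21715763-23934156 in build mm10. Of the other genes in that interval that are not histones, 4 were tested. Zfp184 and Zfp322a, both zinc finger genes, had log2 fold changes of -0.35 and 0.39. Abt1, an activator of basal transcription, had -0.12, and Hfe, the haemochromatosis gene, had -0.36. Their median was -0.23, and Hfe alone had separate groups, at 13.9, 14.5 and 14.7 FPKM in saline and 9.85, 10.8 and 12.8 FPKM in PM2.5. Over all tested genes, 11.8% were separate and lower. The histone genes lie in groups at both ends of the interval. In the Hist2 interval, chr3:96219865-96279001, the 1 other gene tested was Gm20634, which overlaps Hist2h2aa1 and Hist2h3c1. It was 2.62, 2.35 and 0.0388 FPKM in saline and 0.0715, 0.0829 and 0.133 FPKM in PM2.5, a log2 fold change of -1.50 ± 0.68 with overlapping groups.

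**Figure D4:**
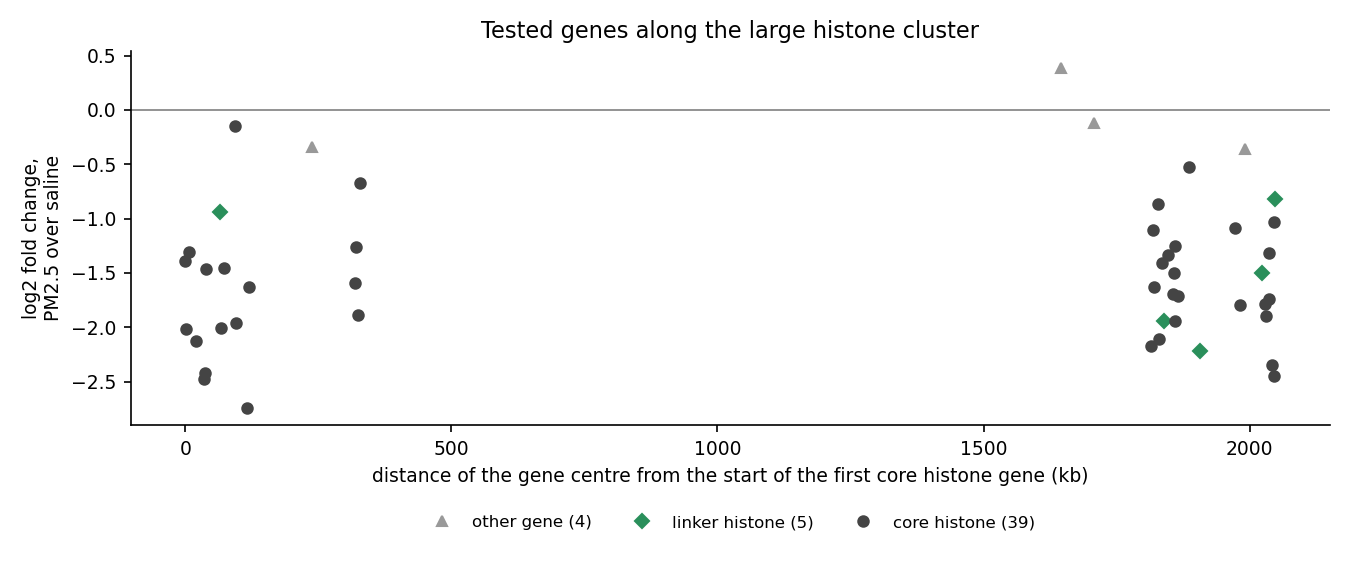
Log2 fold change, PM2.5 over saline, of the tested genes along the Hist1 interval against distance in kb from the first core histone gene, with 39 core histone genes as dark circles, 5 linker histone genes as green diamonds and 4 other genes as grey triangles. The histone genes form groups at both ends and lie at -0.15 or below, and the other genes lie between -0.36 and 0.39.

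Many H2A and H2B genes are arranged head to head, with a shared promoter region between them. Counting starts within 500 bases of each other on opposite strands, there were 11 such pairs, their 5′ ends 236 to 302 bases apart. In 10 of the 11 the H2B gene had the higher saline mean, the exception being Hist2h2ac with Hist2h2be. Hist1h2ae and Hist1h2bg, for example, had saline means of 0.681 and 21.6 FPKM and PM2.5 means of 0.0371 and 6.10 FPKM. Hist1h2ak and Hist1h2bn had saline means of 2.80 and 5.82 FPKM and PM2.5 means of 0.0610 and 1.75 FPKM. The members of a pair thus stood at different values in both groups. Of the H2A genes paired here, Hist1h2ac, Hist1h2ad, Hist1h2ae, Hist1h2ag, Hist1h2ai, Hist1h2an, Hist1h2ao and Hist1h2ap are among the 9 that share 1 UniProt entry. Fragments may have been divided among such copies, so the level of a single copy is uncertain. Both genes passed the filter in 4 of the 11 pairs, and all 8 of their fold changes were negative.

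The saline libraries differed among themselves in a way that depended on the histone type. Saline replicate 2 held the highest saline value in 32 of the 53 tested genes, among them 11 of 13 H4 genes and 13 of 17 H2B genes. Saline replicate 3 held it in 18, among them 10 of 11 H2A genes. Saline replicate 4 was the lowest saline library in 45. In PM2.5, replicate 4 was the lowest library in 39 and replicate 3 the highest in 32. The lowest depth estimate, 18.8 M fragments, was that of PM2.5 replicate 4, and the 3 saline libraries lay between 20.9 and 21.95 M. By these depth estimates, some of the 51 short entries had a value above 0 that was worth under 1 fragment. They numbered 0 to 1 per saline library and 4 to 8 per PM2.5 library, where the summed level was also lower. Whether such values came from fragments divided among entries was not tested.

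Other RNAs that act with core histones were examined by lists, none with a gene called at an adjusted p under 0.05 in the limma fit. The linker histones bind DNA between nucleosomes. All 6 tested of 8 listed were lower at an unadjusted limma p under 0.05, where 7.82% of all tested genes were. Their median log2 fold change was -1.22. Groups were separate and lower for 5 of the 6, where 11.8% of all tested genes were. Hist1h1e, the highest, was 78.9, 104 and 58.3 FPKM in saline and 22.0, 15.3 and 13.2 FPKM in PM2.5. H1f0, a linker histone of non-dividing cells with a polyadenylated mRNA, was 23.5, 28.8 and 24.9 FPKM against 13.9, 13.2 and 16.7 FPKM.

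The 9 replacement variants had a median log2 fold change of 0.01. H3f3a, which encodes H3.3, was 92.4, 68.5 and 87.7 FPKM in saline and 93.8, 78.7 and 80.4 FPKM in PM2.5, and H2afz, which encodes H2A.Z, had a log2 fold change of 0.07. The groups overlapped in both. H3f3b, a second gene for H3.3, was the 1 variant with separate groups, at 40.2, 35.4 and 47.0 FPKM against 22.3, 22.7 and 18.1 FPKM. It was also the only variant with an unadjusted limma p under 0.05. Over all tested genes, 11.8% were separate and lower and 7.82% were lower at that p, so 1 of 9 stood near these shares.

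Of the 16 tested genes for histone mRNA transcription and 3′-end processing, 0 had an unadjusted p under 0.05 and the median log2 fold change was 0.06. Slbp, the stem-loop binding protein, was 7.15, 4.70 and 4.48 FPKM in saline and 4.08, 3.73 and 4.63 FPKM in PM2.5, with overlapping groups. Npat, an activator of histone gene transcription, had a log2 fold change of 0.05. The 12 histone chaperones had a median of 0.03 and 0 with an unadjusted p under 0.05. Nasp and Daxx were slightly higher in every PM2.5 library, by 0.22 and 0.17 on the log2 scale. Those are 2 of the 12, where 7.04% of all tested genes lay higher in every PM2.5 library.

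Genes of DNA replication and proliferation had a median log2 fold change of -0.13. Values were negative for 25 of the 28 tested, and 2 had an unadjusted p under 0.05. These were Cdt1, a replication licensing factor, at 2.45, 2.19 and 2.25 FPKM in saline and 1.25, 1.47 and 1.56 FPKM in PM2.5, and Mcm2, a subunit of the replicative helicase, with a log2 fold change of -0.34. These 2 of 28 stood near the 7.82% of all genes lower by that rule. Groups were separate and lower for 5 of the 28, where 11.8% of all genes were. Pcna, the sliding clamp of DNA polymerases, was 30.8, 29.4 and 30.9 FPKM against 28.1, 30.6 and 29.2 FPKM, and the groups overlapped. Mki67 and Top2a, markers of dividing cells, had log2 fold changes of -0.15 and -0.04. The summed list was 121 to 131 FPKM in saline and 113 to 120 FPKM in PM2.5.

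**Figure D5:**
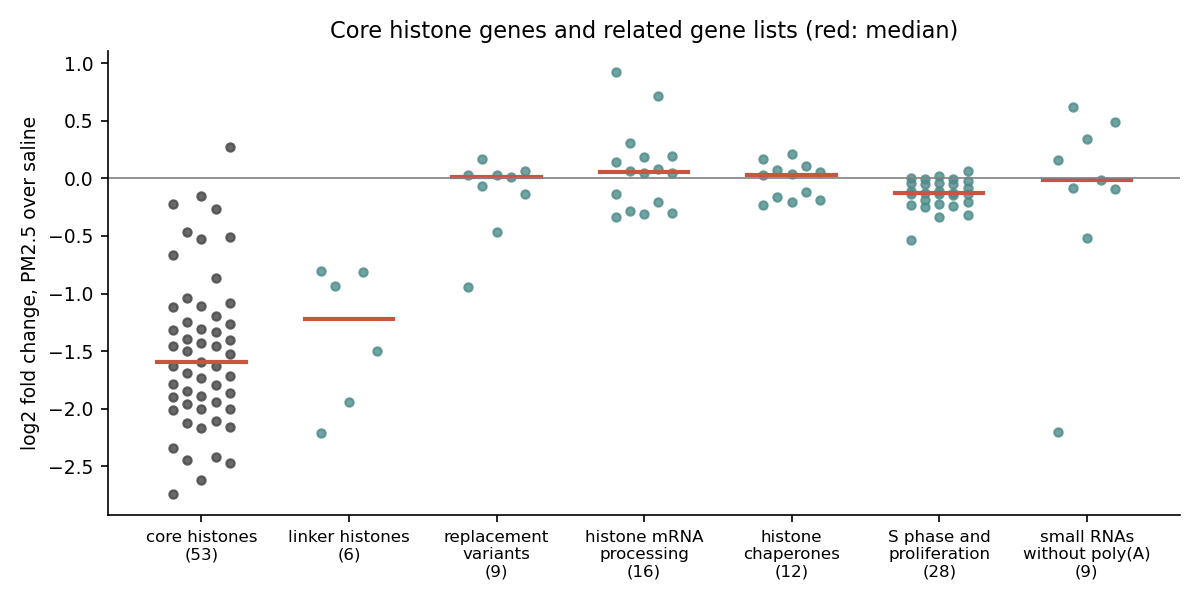
Log2 fold change, PM2.5 over saline, of each tested gene in the core histone set and in 6 related lists (points), with the median of each list as a red line. Medians are -1.59 for core histones, -1.22 for linker histones, 0.01 for replacement variants, 0.06 for histone mRNA processing, 0.03 for chaperones, -0.13 for S phase and proliferation and -0.02 for small RNAs without poly(A).

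Since most cluster histone mRNAs have no poly(A) tail, other RNAs without one were read beside them. How poly(A) RNA or ribosomal RNA was handled in the library step is not given in the sources used here. The 9 tested had a median log2 fold change of -0.02, but values could vary widely within a group. Rn7s1, for example, was 291, 0.302 and 9.33 FPKM in saline and 1.40, 5157 and 0.354 FPKM in PM2.5. Of the 9, 1 was lower at an unadjusted limma p under 0.05, where 7.82% of all tested genes were. That was Rmrp, the RNA of the RNase MRP complex, at 7190, 3452 and 2198 FPKM in saline and 885, 1110.1 and 568 FPKM in PM2.5, with the same order of saline libraries as the H4 sum. Rn7sk, a regulator of transcription elongation, was 12105, 5871 and 5622 FPKM against 7197, 7369 and 6311 FPKM, with overlapping groups. Rpph1, the RNA of RNase P, was 944, 362 and 15.3 FPKM in saline, and its groups overlapped too. Rn7sk and Rpph1 had the same order of saline libraries as Rmrp, so that order was not particular to Rmrp. The rest of those tested, namely Rn7s2, Rn7s1, Vaultrc5, Rnu12, Rnu11 and Snord13, had other orders. The part of such RNAs in the histone difference was not tested.

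Markers of other cell types were read beside the histones, none of them called at an adjusted p under 0.05 in the limma fit. The 6 plasma cell markers summed to 125 to 204 FPKM in saline and 499.7 to 962 FPKM in PM2.5, with 5 of 6 separate and higher, where 7.04% of all tested genes were. The 7 cardiac markers summed to 192 to 394 against 37.6 to 274 FPKM, with 0 of 7 separate. All 7 of their log2 fold changes were nevertheless negative, with a median of -1.79. The 8 T, B and NK cell markers summed to 39.4 to 79.5 FPKM in saline and 31.7 to 47.3 FPKM in PM2.5. All 8 log2 fold changes were negative, and 2 of the 8 were separate and lower, where 11.8% of all tested genes were. The 6 erythroid markers summed to 3640.5 to 4710.5 against 3910 to 5708 FPKM, so that these sums overlapped. Of the 6, 2 were separate and higher, where 7.04% of all tested genes were, and 2 had negative log2 fold changes. The separate ones were Alas2, at 52.7, 40.6 and 43.7 against 68.3, 60.8 and 63.9 FPKM, and Hbb-bt, at 268, 704 and 613 against 1042, 1379 and 1018.5 FPKM. Over the 8 lung markers tested the median log2 fold change was -0.02. Of these, 2 had separate groups, both lower, where 11.8% of all tested genes were separate and lower. Cldn5 of endothelium was 225, 257 and 164 FPKM against 97.5, 107 and 90.2 FPKM, and Scgb1a1 of club cells was 6377 to 8086 against 2565 to 4956 FPKM. Pecam1, also of endothelium, had a log2 fold change of -0.01, and Sftpb, Sftpa1, Sftpd and Ager lay between -0.15 and 0.10, with overlapping groups in all. Their part in the histone difference was not tested.

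Noncoding transcripts annotated over the same genes were few. NONCODE entries lying at least 50% within a member on its own strand numbered 2, over Hist1h2be and Hist4h4, and summed to 1.23 FPKM in saline and 1.08 FPKM in PM2.5. The 10 NONCODE entries overlapping a member on the opposite strand summed to 3.64, 4.40 and 3.74 FPKM in saline and 2.28, 1.73 and 1.90 FPKM in PM2.5. The library kit does not mark strand, so reads from a histone gene and its opposite-strand entry cannot be told apart.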

How the data were processed

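RNA was measured in 6 lung libraries, 3 per group. Per the labels' protocols, RNA was extracted with Trizol and 2 µg entered a NEBNext Ultra kit. The values the authors deposited, 1 for each transcript in each library, were taken as FPKM from their range and spacing, since the header names no unit. The tools bcl2fastq and HISAT2 and the build mm10 are named, per the submitters' processing notes. The quantifier is not given in the sources used here, nor is the annotation release.

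Ensembl transcripts of 1 symbol were added up, and 14865 genes averaging at least 0.5 FPKM entered limma 3.58.1 (R 4.3.3) on the log2(FPKM + 0.5) scale, 2-sided, with empirical Bayes moderation, a mean trend and Benjamini-Hochberg adjustment. Entries whose identifiers start with MERGE held 17.6% to 20.6% of a library's FPKM and name no gene. Sums over copies are described on the log2(sum + 0.5) scale, with no test. Every member that passed the filter is named, with up to 4 of the most abundant genes of a list as the pool for examples, and other genes were chosen after their values were known. The members and lists were chosen with earlier results of these data known. The fit was run on simulated data with independent errors for each gene and library. That simulation held no fragments shared among copies and no library effects, so it does not cover them. Alternatives were pseudocounts of 1 and 0.1, other filters, median-ratio and quantile scaling, robust moderation, locus sums that add NONCODE transcripts, the replicate block and each library left out. Promoters came from RefSeq, build GRCm38.p6. Overlaps used GenomicRanges 1.54.1.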

Additional observations from a re-analysis of the deposited data

How the results depend on the processing

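No member was called in the limma fit under 14 of the 15 alternatives, and 6 were called without saline replicate 4, so that leaving out 1 library gave 0 to 6 calls. The cause was not tested. The median log2 fold change of the tested members lay between -1.96 and -1.31 over all alternatives. Counts of members lower at an unadjusted limma p under 0.05 were 37 to 50, and counts with no overlap were 36 to 50. Both kinds of count were added after seeing the data. They were lowest with a filter of 2 FPKM and highest with no filter, by the number tested. In the main fit, 7.82% and 11.8% of all tested genes met these rules. Shares under the alternatives, with 11655 to 22158 genes tested, are not given here, so nothing is read from these counts. Leaving out the pseudogene Hist1h2al, added after seeing the data, gave -1.73 for the H2A sum. With 1 library left out, the log2 difference of the sum was -2.40 to -1.48 for H2A, -1.50 to -1.11 for H2B, -2.46 to -1.79 for H3, -2.12 to -1.64 for H4, -2.02 to -1.55 for all members and -2.57 to -0.83 for Hist4. Of 778 values of single members, 4 changed sign: Hist1h2bq to 0.09 without saline replicate 2 and 0.10 without saline replicate 4 (range with 1 library left out -0.64 to 0.10), and Hist2h4 to 0.24 without saline replicate 3 and 0.30 without saline replicate 4 (range -1.32 to 0.30).

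Over all tested genes, same-numbered libraries showed no clear pairing (correlations of deviations -0.0332, -0.0292 and 0.0497). Such correlations cannot exclude a pairing that touches some genes, and Sftpc was highest in the replicate 2 libraries of both groups. With the replicate block, 0 members were called, 45 were lower at an unadjusted p under 0.05, and 1 gene of all was called in place of 14. The share of all genes lower at that p with the block is not given here, so nothing is read from the 45. The limits are the 3 libraries per group, low FPKM in most H2A genes, and near-identical copies among which fragments may have been divided.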
